A study of Mus musculus with 6 samples.

Results

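The transcriptome described here is that of NSC-34 cells given a control siRNA (siNC). Its members were the 3 libraries whose treatment label reads control siRNA, out of 6 libraries in the series, and all 23038 listed genes were examined in them. NSC-34 is a mouse line obtained by cell fusion between a neuroblastoma and embryonic spinal cord cells enriched in motor neurons, so each library represents this single hybrid line and not a motor neuron from tissue. The cells were grown in DMEM with 10% FCS. The labels of these libraries name no differentiation step, although the study differentiated the line with retinoic acid for other assays. The 3 libraries came from 3 independent cultures, and no comparison with the other libraries was made, so levels are given with their spread and without a test.

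Spinal motor neurons are specified by LIM homeodomain factors such as Isl1, Lhx3 and Mnx1, release acetylcholine made by Chat, and carry the intermediate filaments that allow long, thick axons. Neuroblastoma derives from the sympathetic branch of the neural crest, where Phox2a, Hand2, Gata2 and Gata3 drive a noradrenergic program that ends in the enzymes Th and Dbh. A hybrid of both parents could hold either program, and its control state is the background against which knockdown results in this line are read.

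Expression was measured as RPKM, the reads per kilobase of exon scaled to library depth, and as the expected count behind it. The siNC libraries held 50927311, 47349703 and 43000503 counts. For a gene with 2 kb of exon, the 3 counts that an observed 0 allows equal 0.0295 to 0.0349 RPKM, which covers counting error only. At least 1 RPKM in all 3 libraries (detected) was reached by 11293 genes, 49.0% of those listed, and by 10828 of 20307 protein-coding genes (53.3%). No count in any library (silent) was recorded for 5729 genes (24.9%), of which 4596 were protein-coding (22.6% of that class). A mean of at least 100 RPKM (abundant) was reached by 729 genes (3.16%), and 21 genes exceeded 1000 RPKM. Detected genes had a median of 12.8 RPKM and took 99.5% of all counts. The abundant genes took 31.4% of the counts and 48.8% of the summed RPKM. Among 1689 lncRNA genes, 18.1% were detected and 36.8% were silent.

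Promoters differed along this scale. The RefSeq promoter of a gene, from 250 bases before to 50 bases after its start in GRCm38.p6, was matched for 16259 protein-coding genes (80.1%). The stretches below are the 100 bases before the start, 5′ to 3′ on the gene's strand, of 4 expressed genes and 4 genes at or near 0. They were picked after their values were seen and do not all follow the medians given after them. Capitals mark each CG dinucleotide and any TATAAA.
Rpl41, chr10:128549169-128549268 (minus strand): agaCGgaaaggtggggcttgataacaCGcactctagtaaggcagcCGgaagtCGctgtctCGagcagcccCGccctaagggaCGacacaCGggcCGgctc
Eef2, chr10:81176531-81176630 (plus strand): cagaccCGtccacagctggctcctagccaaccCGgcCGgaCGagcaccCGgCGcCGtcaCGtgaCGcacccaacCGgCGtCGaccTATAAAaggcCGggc
Hand2, chr8:57320883-57320982 (plus strand): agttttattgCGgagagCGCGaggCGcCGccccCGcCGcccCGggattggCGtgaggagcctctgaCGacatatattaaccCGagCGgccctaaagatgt
Prph, chr15:99055074-99055173 (plus strand): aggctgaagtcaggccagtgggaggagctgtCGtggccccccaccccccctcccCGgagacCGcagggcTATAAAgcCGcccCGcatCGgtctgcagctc
Chat, chr14:32465910-32466009 (minus strand): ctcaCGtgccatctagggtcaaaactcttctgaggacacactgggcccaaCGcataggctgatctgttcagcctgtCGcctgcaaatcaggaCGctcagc
Dcx, chrX:143933220-143933319 (minus strand): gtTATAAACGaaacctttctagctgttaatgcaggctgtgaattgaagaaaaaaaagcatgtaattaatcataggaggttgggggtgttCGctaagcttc
Olfr996, chr2:85579115-85579214 (plus strand): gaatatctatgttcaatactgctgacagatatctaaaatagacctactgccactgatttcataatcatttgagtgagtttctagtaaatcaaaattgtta
Krt27, chr11:99351119-99351218 (minus strand): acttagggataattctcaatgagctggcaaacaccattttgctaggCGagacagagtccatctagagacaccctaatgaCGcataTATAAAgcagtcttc

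Of the expressed genes, the stretch of Eef2 held 13 CG dinucleotides, that of Hand2 12, that of Rpl41 9 and that of Prph 6. Of the genes at or near 0, Chat had 4, Dcx and the hair follicle keratin Krt27 had 2 each, and the olfactory receptor Olfr996 had 0. Over the full 300 bases, the CpG ratio (CG dinucleotides observed over those expected from the C and G content) had a median of 0.179 in 3722 silent genes. It was 0.366 in 3721 genes with a count but under 1 RPKM in a library, 0.737 from 1 to 10 RPKM, 0.817 from 10 to 100 RPKM and 0.841 in 586 genes at 100 RPKM or more. Prph was an exception among the genes shown, since its ratio of 0.324 lay below the 0.436 of Chat and the 0.37 of Krt27. A ratio of at least 0.6 was found in 10.6% of silent and 86.2% of abundant genes, against 50.9% of all promoters. The letters TATAAA, sought on the gene's strand from 40 to 16 bases before the start, stood in 6.45% of silent promoters and 2.82% of all. That share was 1.2% from 1 to 10 RPKM, 0.776% from 10 to 100 RPKM and 1.54% in abundant genes. In the stretches shown, the TATAAA of Prph lies within this window, and those of Eef2, Dcx and Krt27 lie outside it. GGGCGG on either strand was present in 14.8% of silent and 67.4% of abundant promoters (48.8% of all). CCGGAAG on either strand was present in 1.75% and 26.6% (12.4% of all). CCAAT on either strand showed no such gradient, at 41.0% of silent and 42.3% of abundant promoters (39.1% of all). These are matches of letters, and factor binding was not measured.

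The most abundant genes belonged to translation and respiration. Among the 25 genes with the highest mean RPKM and at least 300 bases of exon, 12 encode cytosolic ribosomal proteins and 4 encode respiratory chain or ATP synthase subunits. These 25 genes held 10.2% ± 0.843 (SD, n = 3) of the summed RPKM. Rpl41, a very small protein of the large ribosomal subunit, led with 4013, 3180 and 2769 RPKM in siNC 1, 2 and 3. Eef1a1, the elongation factor that delivers tRNAs to the ribosome, had 2867, 2666 and 2898 RPKM, and its values lay closer together than those of Rpl41. Atp5b, the catalytic subunit of ATP synthase, had 2428, 1938 and 2624 RPKM. Eef2, which moves the ribosome along the mRNA, had 1753, 1596 and 1624 RPKM.

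**Figure D1:**
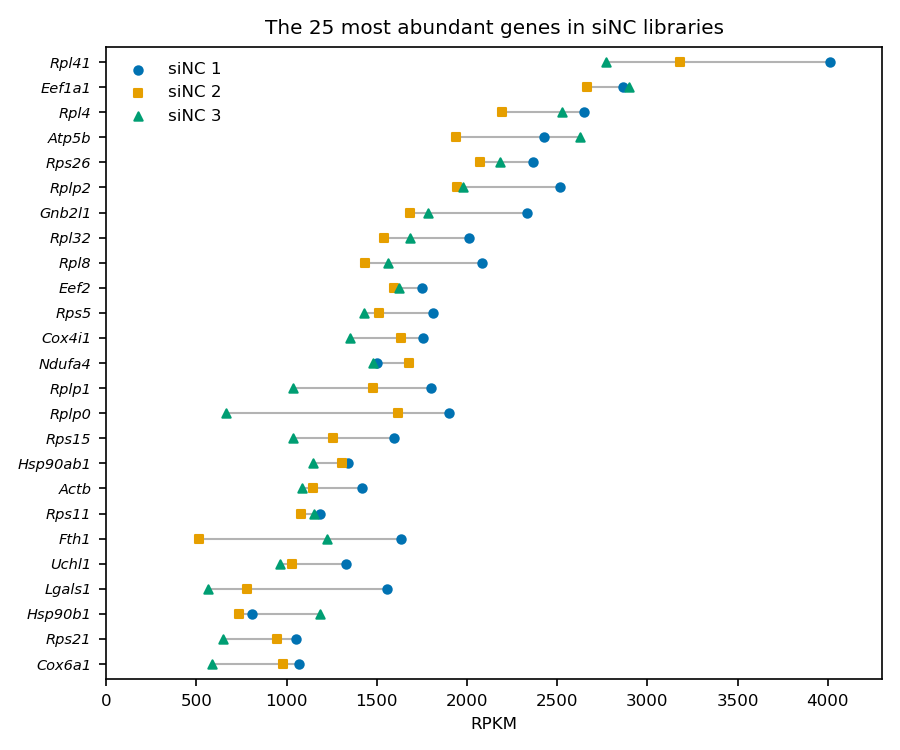
RPKM (linear axis) of the 25 genes with the highest mean level, with 1 point per siNC library and a grey line from the lowest to the highest library. Rpl41 led the order, and Rplp0, Fth1 and Lgals1 had the libraries farthest apart relative to their level.

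A neuronal gene stood among these housekeeping genes. Uchl1, a ubiquitin hydrolase abundant in neurons, had 1329, 1029 and 963 RPKM. In 3 of the 25 genes the highest library was at least 2 times the lowest after scaling. Rplp0, a protein of the ribosomal stalk, had 1901, 1619 and 667 RPKM, with siNC 3 low. Fth1, the heavy chain of the iron store ferritin, had 1634, 514 and 1226 RPKM, with siNC 2 low. Lgals1, a galactoside-binding protein, had 1556, 781 and 565 RPKM, with siNC 1 high. By counts instead of RPKM, only 10 of these 25 genes were also among the 25 with the most counts, since counts favour long transcripts.

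Whole complexes were expressed together. Of 81 cytosolic ribosomal protein genes, 78 were detected (96.3%, against 49.0% of all genes), and the median over all members was 137 RPKM. Medians of the groups that follow are over all members too, detected or not. Of 84 nuclear genes for the respiratory chain and ATP synthase, 81 were detected (median 176 RPKM), as were 37 of 39 proteasome genes (median 117 RPKM) and all 76 mitochondrial ribosomal protein genes (median 42.3 RPKM). The background for these shares was the 49.0% of all genes detected, with a median of 1.19 RPKM over all genes.

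Some of the usual reference genes had low values. Gapdh, the glycolytic enzyme most often used as a loading control, had 5.13, 5.90 and 4.69 RPKM. Pgk1, which acts next in glycolysis, had 5.67, 3.24 and 5.01 RPKM, and Ppia, the cyclophilin A gene, had 10.8, 11.7 and 9.04 RPKM. By contrast Aldoa had 973, 764 and 508 RPKM and Pkm had 472, 454 and 412 RPKM, and all 21 glycolysis genes were detected, against 49.0% of all genes. Of the 75-base windows of the Gapdh transcript, 87.9% were identical to a window of another annotated transcript, as were 67.2% for Pgk1 and 72.6% for Ppia. Among ribosomal protein genes, the 38 under 100 RPKM shared a median of 51.9% of their windows and the 43 at or above it 30.4%. Rpl23a, with 98.8% shared windows, had 5.22, 5.35 and 4.73 RPKM. How reads that fit several loci were counted is not given in the sources used here, so levels of genes with close copies are uncertain, and the part of this sharing in the low values was not tested. Only annotated transcripts entered the count of windows. Tmsb4x, the gene of the actin-binding thymosin beta 4, had 0 counts in all 3 libraries and 0% shared windows.

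Of 19 pan-neuronal genes, 14 were detected (73.7%, against 49.0% of all genes), with a median of 21.6 RPKM. Tubb3, the neuronal beta-tubulin, had 346, 318 and 142 RPKM. Gap43, a growth cone protein, had 129, 128 and 95.8 RPKM. Snap25, a membrane fusion protein of the synapse, had 46.4, 58.9 and 48.1 RPKM, and Syt1, its calcium sensor, had 46.3, 69.8 and 33.5 RPKM. Other neuronal genes were near or at 0. Dcx, a microtubule protein of migrating neurons, and Rtn1, a reticulon of neuroendocrine cells, had no count in any library, which for Dcx allows up to 0.0056 RPKM. Stmn2, an axonal regulator of microtubules, had 2, 0 and 0 counts. Rbfox3, the NeuN antigen of mature neurons, had 0.0542, 0.117 and 0.0544 RPKM.

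Of 13 motor neuron transcription factors, 5 were detected (38.5%, against 49.0% of all genes), and the median was 0.411 RPKM. Isl1, the LIM factor shared by motor neurons and sympathetic neurons, ranged from 4.75 to 4.83 RPKM. Isl2 had 4.68, 2.65 and 2.97 RPKM. Lhx3, the partner of Isl1 in motor neurons, had 0.235, 0.283 and 0.0758 RPKM. Mnx1, also called Hb9, had 0.0944, 0.029 and 0 RPKM. Olig2, a factor of motor neuron progenitors, was listed at 0 in siNC 1 and 2 and at 0.00954 RPKM in siNC 3, and Nkx6-1 had no count.

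Of 13 cholinergic genes, 9 were detected (69.2%, against 49.0% of all genes). The enzyme of acetylcholine synthesis, Chat, had 0.0297, 0.0777 and 0.0453 RPKM from 7, 17 and 9 counts. In RNA pooled over a culture, a low level in all cells and a higher level in a few cells cannot be told apart. The choline transporter Slc5a7 had 1, 0 and 3 counts. The vesicular transporter Slc18a3, which lies within the first intron of Chat in mammals, had 1.66, 2.25 and 2.15 RPKM. Slc44a1, a choline transporter of many cell types, had 37.6, 30.2 and 30.9 RPKM. Nicotinic receptor subunits covered a wide range. Chrna3, the alpha subunit of ganglionic nicotinic receptors, had 23.4, 62.2 and 59.6 RPKM, with siNC 1 low, and Chrnb2 had 11.4, 10.6 and 10.7 RPKM. Chrnb4 had 1.56, 2.97 and 1.62 RPKM, and Chrna4 stayed at or under 0.0474 RPKM. Ache, which degrades acetylcholine, had 5.73, 6.48 and 2.16 RPKM.

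Of 18 effector genes of motor neurons, 11 were detected (61.1%, against 49.0% of all genes) and 3 exceeded a mean of 100 RPKM (16.7%, against 3.16%). Prph, the intermediate filament of neurons with peripheral axons, had 949, 586 and 559 RPKM. Ret, the receptor kinase for GDNF, had 183, 129 and 205 RPKM. Slit3, an axon guidance ligand, had 129, 134 and 98.0 RPKM. The neurofilament heavy chain Nefh had 72.6, 73.0 and 47.1 RPKM, while Nefl, the light chain, varied more, with 52.8, 91.3 and 22.7 RPKM. Calcb and the guidance receptor Dcc were silent.

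Of 20 noradrenergic and neuroblastoma genes, 16 were detected (80.0%, against 49.0% of all genes). Hand2, a bHLH factor of sympathetic neurons, had 152, 205 and 172 RPKM. Phox2a had 150, 153 and 50.2 RPKM, with siNC 3 low. Gata2 had 31.9, 28.9 and 14.3 RPKM, and Gata3 had 5.94, 8.06 and 6.48 RPKM. Dbh, which converts dopamine to noradrenaline, had 48.8, 36.0 and 27.6 RPKM. Th, the first enzyme of catecholamine synthesis, had 28.1, 38.3 and 5.43 RPKM. Chgb, a granin of secretory granules, had 290, 828 and 239 RPKM, with siNC 2 high. The noradrenaline transporter gene Slc6a2 stayed at or under 0.00684 RPKM. Mycn, amplified in many neuroblastomas, had 7.58, 6.72 and 4.08 RPKM, against 99.7, 79.2 and 101 RPKM for Myc. Among the motor neuron and cholinergic genes, Chat, Mnx1 and Lhx3 were near 0, while Isl1, Isl2, Onecut2, Foxp1 and Slc18a3 were detected. Among the noradrenergic and neuroblastoma genes, Hand2, Gata2, Th and Dbh were detected, while Slc6a2, Hand1 and Slc18a1 stayed under 1 RPKM.

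**Figure D2:**
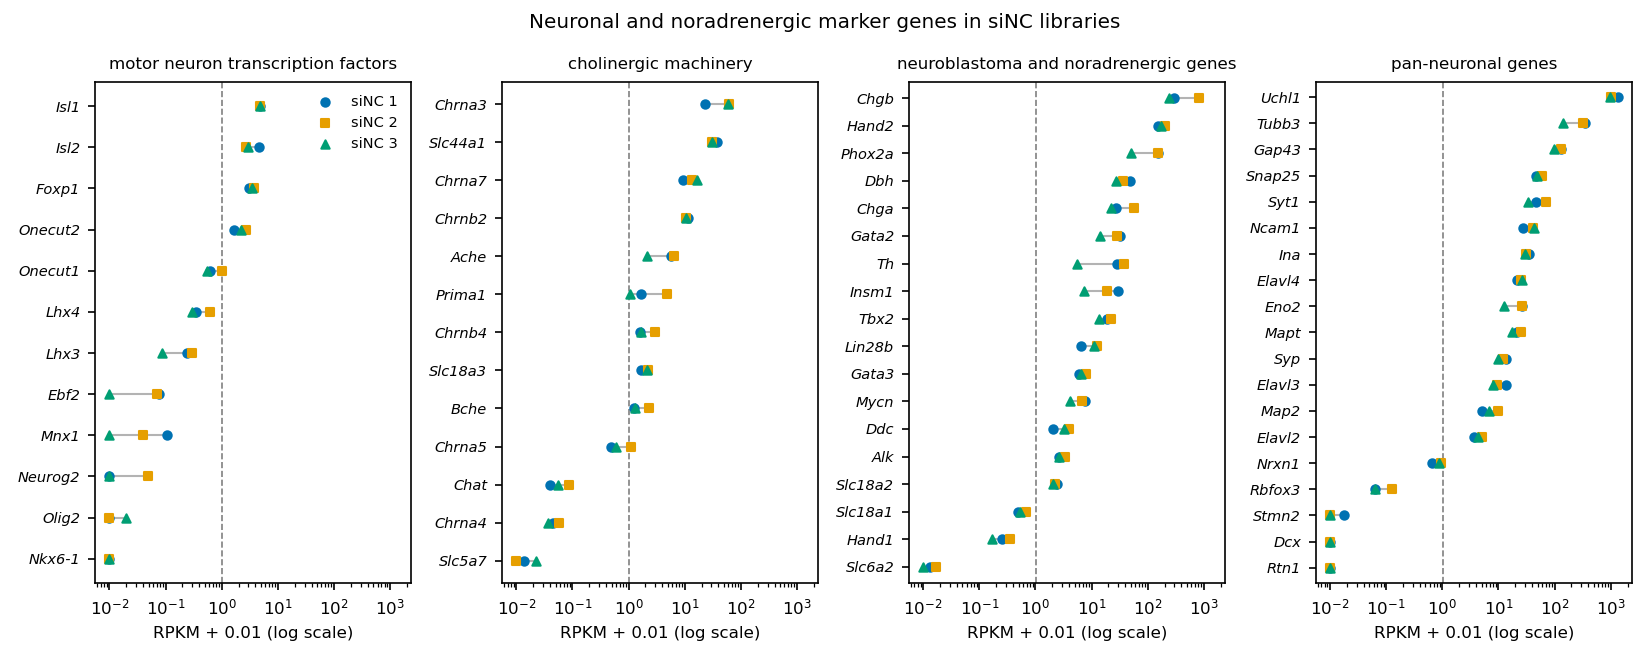
RPKM + 0.01 (log axis) of the genes of 4 marker lists, with 1 point per siNC library, ordered by mean level within each list, without members that are not reported here. The dashed line marks 1 RPKM. Chat, Slc5a7, Mnx1 and Lhx3 lie to its left in all 3 libraries, as do Slc6a2, Hand1 and Slc18a1. Isl1, Isl2, Onecut2, Foxp1 and Slc18a3 lie to its right in all 3 libraries, as do Hand2, Gata2, Th and Dbh.

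Of 11 genes of other transmitters, 4 were detected (36.4%, against 49.0% of all genes), all under 10 RPKM. Slc32a1, the vesicular transporter for GABA and glycine, had 4.85, 4.95 and 2.03 RPKM. Tph2, the neuronal enzyme of serotonin synthesis, had 4.73, 3.51 and 6.39 RPKM. Of the GABA-synthesizing enzymes, Gad2 had 1.40, 2.31 and 1.19 RPKM and Gad1 had 0, 0 and 0.013 RPKM. Of the vesicular glutamate transporters, Slc17a7 had 2.62, 1.49 and 1.43 RPKM and Slc17a6 was silent. Of 13 transcription factors of spinal interneurons, only Lhx1 was detected, with 2.57, 3.39 and 1.44 RPKM, and 5 were silent.

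Of 16 ionotropic glutamate receptor subunits, 3 were detected (18.8%) and 6 were silent (37.5%), against 49.0% and 24.9% of all genes. Gria1, Gria3 and Gria4 had no count and Gria2 had 1 count in siNC 2, so the 4 AMPA receptor subunits were at or near 0. Grin1 had 7.89, 7.48 and 4.07 RPKM, while Grin2a and Grin2b, which pair with it in NMDA receptors, were silent. Among 21 GABA-A and glycine receptor subunits, 1 was detected (4.76%) and 11 were silent (52.4%). Htr3a, a serotonin-gated channel, had 52.7, 59.4 and 59.3 RPKM, and P2rx3, an ATP-gated channel of sensory neurons, had 32.8, 15 and 18.7 RPKM. Detected voltage-gated subunits were 4 of 10 sodium channel genes, led by Scn9a, 5 of 10 calcium channel genes (50%, near the 49.0% of all genes), led by Cacna1c, and 4 of 22 potassium channel genes (18.2%), led by Kcnh2 with 26.8, 26.5 and 16.7 RPKM. Of 21 trophic factor receptors, 10 were detected (47.6%, near the 49.0% of all genes), among them Ngfr with 82.9, 43.7 and 42.0 RPKM. Ntrk2, the BDNF receptor, was silent.

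Of 23 genes used to model motor neuron disease, 20 were detected (87.0%, against 49.0% of all genes). Sod1, the cytosolic superoxide dismutase, had 774, 702 and 544 RPKM, and Tardbp, which encodes TDP-43, had 38.2, 35.5 and 44.4 RPKM. Ang and the ephrin receptor Epha4 had no count. Of 36 splicing regulators, 29 were detected (80.6%, against 49.0% of all genes). Qk, the gene targeted in the other libraries of the series, had 9.68, 8.18 and 14.9 RPKM. Ptbp1, the repressor of neuronal exons, had 242, 219 and 239 RPKM, against 15.4, 13.1 and 16.1 RPKM for its neuronal paralogue Ptbp2.

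Markers of other cell types are read against all genes, of which 49.0% were detected and 24.9% were silent. Of 8 astrocyte markers, 1 was detected (12.5%) and 3 were silent (37.5%). It was Slc1a2 with 1.45, 1.56 and 2.09 RPKM, and the summed astrocyte list reached at most 2.59 RPKM in a library. No marker of microglia and leukocytes was detected in all 3 libraries, and the defining genes Ptprc, Cx3cr1 and P2ry12 were silent. Among muscle markers, Myod1, Myog and Myf5 were silent and Mylpf, a myosin light chain, had 21.9, 20.8 and 13.8 RPKM. Of 10 endothelial and fibroblast markers, 3 were detected and 3 were silent, each 30% of the list. Pecam1 had 4.87, 4.70 and 3.20 RPKM, Kdr had 1.74, 7.11 and 3.63 RPKM, and Pdgfrb had 3.65, 3.11 and 5.27 RPKM. The silent members were Col3a1, Lum and Acta2. Of 10 oligodendrocyte markers 4 were detected (40%) and 1 was silent (10%), with Pdgfra, the receptor of their precursors, at 2.99, 5.54 and 5.25 RPKM, while Olig1 was silent. Of 8 Schwann cell and neural crest markers 3 were detected and 3 were silent, each 37.5% of the list, with Pmp22, a myelin protein also made outside myelin, at 75.8, 73.0 and 37.7 RPKM, while Foxd3, Tfap2a and Tfap2b were silent.

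All 21 cell cycle genes were detected, against 49.0% of all genes, with a median of 64.1 RPKM. Top2a, the topoisomerase of dividing cells, had 137, 200 and 198 RPKM, and Mki67 had 51.3, 92.1 and 81.9 RPKM. All 14 genes of the integrated stress response were detected, with a median of 168 RPKM, and 9 exceeded a mean of 100 RPKM against 3.16% of all genes. Asns, asparagine synthetase, had 845, 648 and 883 RPKM. Atf4, the transcription factor at the centre of this response, had 452, 300 and 349 RPKM, and Ddit3, its target also called Chop, had 312, 225 and 366 RPKM. Detected heat shock and chaperone genes numbered 10 of 12 (83.3%, against 49.0% of all genes). The heat-inducible Hspa1a and Hspa1b stayed at or under 0.0629 RPKM, while the endoplasmic reticulum chaperones Hspa5 and Hsp90b1 had means of 410 and 910 RPKM. Hspa1a and Hspa1b shared 61.8% and 55.7% of their windows with another annotated transcript, so their levels are uncertain. In the list of 18 interferon response genes, 12 were detected (66.7%, against 49.0% of all genes), and the median over all 18 was 3.69 RPKM. Cdkn2a, a cell cycle inhibitor often lost in lines, had 55.8, 51.0 and 40.1 RPKM.

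Hox genes, which record position along the body axis, were expressed by cluster. Of 39 Hox genes, 18 were detected (46.2%) and 10 were silent (25.6%), near the 49.0% and 24.9% of all genes. The silent 10 were all the members of the Hoxb cluster on chromosome 11, while the Hoxa, Hoxc and Hoxd clusters had 6 of 11, 5 of 9 and 7 of 9 genes detected and none silent. Hoxc10, a lumbar-level gene, was the highest, with 19.3, 20.7 and 13.1 RPKM. Hoxc6 had 16.1, 16.9 and 11.2 RPKM, and Hoxa9 had 9.57, 13.0 and 9.05 RPKM. Hoxd13, the most 5′ gene of its cluster, had 13.9, 15.8 and 15.7 RPKM, whereas its neighbours Hoxd11 and Hoxd12 had means of 0.81 and 0.141 RPKM. Hoxa13 had a mean of 0.00536 RPKM. The silent stretch ran on without a break over 12 protein-coding genes from Calcoco2, an autophagy receptor, and Ttll6 to Hoxb1 (chr11:96098916-96368254, GRCm38.p6). It was followed by Skap1, with 1 count in siNC 1. The flanking genes Atp5g1 and Snx11 had means of 41.5 and 11.6 RPKM. DNA copy number was not measured.

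**Figure D3:**
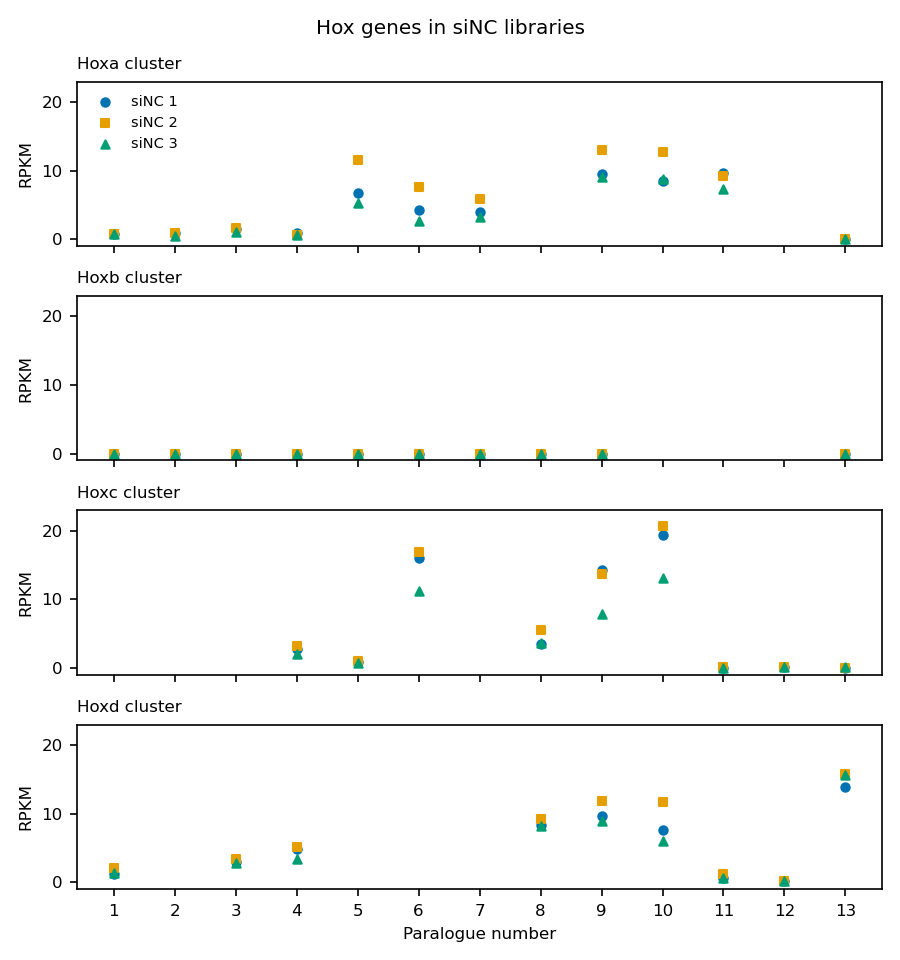
RPKM (linear axis) of the Hox genes by paralogue number, 1 panel per cluster and 1 point per siNC library. All Hoxb genes lie at 0, genes of paralogue groups 5 to 11 lead in Hoxa, and Hoxd13 stands above Hoxd11 and Hoxd12.

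Large silent families lay in runs. Of 1109 olfactory receptor genes, 1020 were silent (92.0%, against 24.9% of all genes), as were 296 of 321 vomeronasal receptor genes, 51 of 52 keratin-associated protein genes, 38 of 47 keratin genes, 51 of 59 defensin genes, 27 of 28 kallikrein genes and all 26 genes of the prolactin family. Olfr222 was the olfactory receptor that was detected, with 1.93, 1.63 and 1.90 RPKM. The longest run of neighbouring protein-coding genes without a count held 215 genes, 213 of them olfactory receptors, from Olfr996 to Olfr1274-ps (chr2:85579215-90401674, GRCm38.p6). A run of 57 genes from Krt27 to Krt42 (chr11:99345565-100269951) held 23 keratin and 21 keratin-associated genes. A run of 36 genes from Vmn1r188 to Vmn1r223 (chr13:22087878-23250323) consisted of vomeronasal receptors throughout. In all, 36 runs of 20 or more genes held 1214 of the 4596 silent protein-coding genes, and 777 of those were olfactory, vomeronasal or taste receptors. At least 50% of the 75-base windows were shared with another gene in 407 of the 4569 silent protein-coding genes with a matched transcript, and none was shared in 2578.

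Chromosomes differed in these shares. On the autosomes, 45.1% to 63.5% of protein-coding genes were detected, with the lowest share on chromosome 7, where 31.6% were silent. On the X chromosome 38.6% were detected and 37.1% were silent, but its detected genes had a median of 12 RPKM, within the 10.4 to 23.2 RPKM of the autosomes. Xist, the RNA that coats the inactive X, had 37.1, 53.7 and 52.7 RPKM. Tsix, which overlaps Xist on the other strand, had 6.71, 13.9 and 11.5 RPKM, and the kit does not keep strand, so reads of the pair cannot be told apart where they overlap. Of 31 protein-coding genes on the Y chromosome, 30 were silent, and Kdm5d had 0.00258 RPKM in siNC 1 and 0 in the others.

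Imprinted genes, expressed from 1 parental copy, were uneven. Of 21, 9 were detected (42.9%, near the 49.0% of all genes) and none was silent. Mest had 192, 147 and 214 RPKM, Snrpn had 133, 130 and 103 RPKM, and Sgce had 44.9, 43.7 and 50.6 RPKM. Igf2, Dlk1, Ndn and Plagl1 stayed at or under 0.0163 RPKM. Igf2 shared 91.0% of its windows with another annotated transcript, so its level is uncertain. Peg3, a zinc finger gene expressed from the paternal copy, had 30.1, 112 and 25.7 RPKM. Peg10 had 16.8, 44.4 and 14.1 RPKM, and Zim1, a neighbour of Peg3, had 0.388, 2.72 and 0.372 RPKM. These 3 genes were highest in siNC 2. Histone genes, whose main transcripts lack the poly-A tail that the libraries selected, were detected in 3 of 64 cases (4.69%).

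The libraries were close overall and differed in a directed way. The squared correlation across 12646 genes of log10(RPKM + 0.01), a description since genes are not replicates, was 0.961 for siNC 1 and 2, 0.934 for siNC 1 and 3 and 0.945 for siNC 2 and 3. The common biological coefficient of variation estimated by edgeR was 0.242. Counting noise was far smaller, with a median coefficient of variation of 0.0234 among the 11839 genes with a mean count of at least 100. After TMM scaling, the highest of the 3 libraries was at least 2 times the lowest (variable) in 1353 of these 11839 genes (11.4%), and at least 5 times in 41. The lowest library was siNC 3 in 855 of the variable genes, siNC 1 in 280 and siNC 2 in 218. Variable genes lowest in siNC 3 had a median transcript GC content of 56.5%, those highest in siNC 3 had 44.1%, and all genes at this depth had 50.5%.

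This GC pattern held across the transcriptome. Genes were divided by transcript GC content into 5 groups of near equal number. The median log2 difference from the gene's own mean moved from -0.17 in the group of lowest GC content to 0.22 in the highest in siNC 1, and from 0.22 to -0.28 in siNC 3. In siNC 2 it moved from -0.04 to 0.07. Across 11481 genes, this difference correlated with GC content at r = 0.531 in siNC 1, 0.143 in siNC 2 and -0.565 in siNC 3, and with log2 exon length at -0.371, 0.143 and 0.209. The 3 differences of a gene sum to 0, so these values are not independent. Removing a smooth trend on GC content and length, an alternative chosen after the data were seen, left 775 genes at 2 times or more, and 663 of 1305 variable genes that could be examined kept that range. Among the 775, the lowest library was siNC 3 in 405, siNC 1 in 180 and siNC 2 in 190. The part of library preparation in this trend was not tested.

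**Figure D4:**
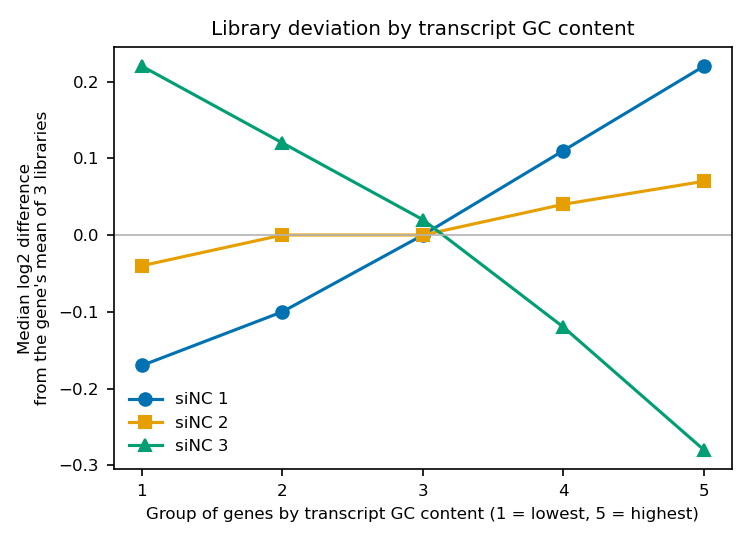
Median log2 difference of genes from their own mean over the 3 siNC libraries (linear axis), in 5 groups of genes by transcript GC content, with 1 line per library. The lines of siNC 1 and siNC 3 cross, from -0.17 to 0.22 and from 0.22 to -0.28, while siNC 2 stays within -0.04 and 0.07.

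Of the 25 genes with the largest biological coefficient of variation, 15 were lowest in siNC 3, 12 were highest in siNC 2 and 9 were highest in siNC 1. Hist1h2bc, a histone H2B gene, had 1.38, 0.696 and 8.82 RPKM, and the linker histone gene Hist1h1c had 3.07, 4.33 and 15.8 RPKM. Both were high in siNC 3 and lay far from the other 2 libraries. Cxcl1, a chemokine, had 17.7, 4.36 and 1.89 RPKM. Cd74, the invariant chain of MHC class II, had 18.5, 5.2 and 4.6 RPKM, and Akr1b7, an aldo-keto reductase, had 15.8, 4.46 and 4.85 RPKM. All 3 were high in siNC 1.

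Genes high in siNC 2 formed another set. Rgs4, which limits G protein signalling, had 5.52, 48.0 and 21.4 RPKM. Adam12, a membrane metalloprotease, had 1.31, 7.87 and 2.04 RPKM. Peg3 was among the 25 as well, together with Peg3as, a transcript from its opposite strand whose reads cannot be separated from it where they overlap, and with Zim1. Prima1, which anchors acetylcholinesterase in the membrane, had 1.67, 4.81 and 1.06 RPKM. Fxyd1, a regulator of the sodium pump, had 3.86, 3.95 and 0.243 RPKM, the widest range of the 25 at 15.3 times after scaling, with siNC 3 low. With the GC and length trend removed, 24 of these genes could be examined and the range of Fxyd1 was 11.8 times, that of Hist1h2bc 12.9 times and that of Rgs4 8.09 times.

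**Figure D5:**
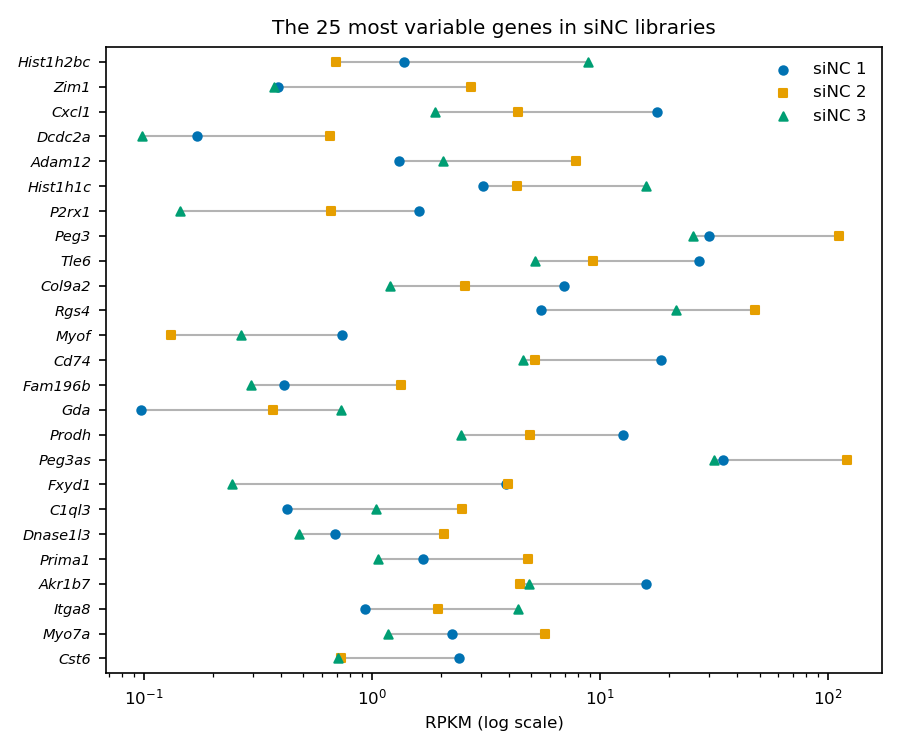
RPKM (log axis) of the 25 genes with the largest biological coefficient of variation among genes with a mean count of at least 100, with 1 point per siNC library and a grey line from the lowest to the highest. Hist1h2bc and Hist1h1c are high in siNC 3, Cxcl1, Cd74 and Akr1b7 in siNC 1, and Rgs4, Adam12, Peg3 and Zim1 in siNC 2.

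Variable genes in the lists are given beside the background of 11.4%. Among neuroblastoma and noradrenergic genes with a mean count of at least 100, 6 of 17 were variable, and siNC 3 was the lowest library in 10, as it was in 38.7% of all 11839 genes at this depth. Of motor neuron effector genes 6 of 13 were variable, of cholinergic genes 4 of 10, of imprinted genes 5 of 11 and of histone genes 5 of 5. In contrast 1 of 21 cell cycle genes was variable, Tk1 with 80.1, 79.7 and 30 RPKM, as were 0 of 14 sterol synthesis genes and 1 of 76 mitochondrial ribosomal protein genes. Of 14 integrated stress response genes, 12 were lowest in siNC 2 (3306 of the 11839 genes were), and the median difference from the gene's mean in that library was -0.31 (log2) over the 14. Interferon response genes were lowest in siNC 3 in 11 of 13 cases (4582 of 11839 among all genes), with a median difference there of -0.36 (log2). Hox genes were highest in siNC 2 in 17 of 20 cases (3436 of 11839 among all genes), with a median difference there of 0.24 (log2). Cytosolic ribosomal protein genes were highest in siNC 1 in 58 of 76 cases (4034 of 11839 among all genes), and the median difference from the gene's mean in that library was 0.22 (log2) over the 76. The siNC 1 to siNC 3 contrast in GC content moves with several of these shifts, and its part in each was not tested. Members of a list are not replicates, and each shift rests on 1 library.

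Values of some genes lay close together in all 3 libraries. Among 7858 genes with a mean count of at least 1000, the 10 with the smallest coefficient of variation were Rbm12, Ercc3, Rnf216, Zfp777, Taf15, Vcan, Phf12, Maea, Cdc42bpb and Pgs1. Taf15, an RNA-binding protein, had 44.5, 45.1 and 42.5 RPKM, and Ercc3, a helicase of transcription factor TFIIH, had 17.4, 17.9 and 16.8 RPKM. Their coefficients of variation ran from 0.0931% to 0.696%, each below the 0.879% to 2.66% that counting alone gives, so their order is not resolved. They were picked as the smallest of 7858 values over 3 libraries, so a constant level cannot be read from them. Of common reference genes, Sdha had a coefficient of variation of 6.68%, Ywhaz 7.11%, Actb 14%, Tbp 16.9% and B2m 19%. Tubb3, used as a neuronal reference, had 39.5%.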

How the data were processed

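Poly-A RNA of NSC-34 cells was sequenced by the authors as 75-nt paired reads after library preparation with a TruSeq version 2 kit, which keeps no strand. OLego was the aligner, and Quantas gave the counts. Tool versions are not given in the sources used here. The labels give mm10, while the methods name the build inconsistently, and the files hold no coordinates. Expected counts, exon lengths and RPKM values per gene are what the deposited files hold. Between 22.0% and 22.9% of the authors' expected counts were not whole. The deposited RPKM values were rebuilt from counts, exon length and column total to within 1.3e-11, so they carry no other scaling.

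The siNC libraries are the samples labelled control siRNA. Counts were rounded and scaled by TMM in edgeR 4.0.16 (R 4.3.3), with DESeq2 1.42.0 size factors as an alternative. Common dispersion was estimated over genes with a mean log2 CPM above 0, and the scripts were tested on simulated data. Tables were handled in Python 3.11.15. With 1 group, no test was made. Biological coefficients of variation are the square root of the squared coefficient of variation of TMM-scaled counts less its counting part. Genes were matched by Entrez identifier to RefSeq (22959 of 23038) for class, position and promoter, and to GENCODE transcripts of GRCm38 (20915 genes) for GC content and shared 75-base windows, on either strand. The transcript nearest in length to the exon length was used. Coordinates describe the reference gene, not the model counted by the authors.

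Named are the 25 genes with the highest mean RPKM, members of 26 gene lists and 23 families, the 25 most and 10 least variable genes, and genes at the ends of silent runs. Lists of channels, receptors, disease genes and splicing regulators (9), reference genes and Tmsb4x were added after values were seen. Members and lists were chosen with earlier results of these data known. Some list members count in their list and are not reported by name here.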

Additional observations from a re-analysis of the deposited data

How the results depend on the processing

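No paired analysis was possible because only the siNC group is described. Counts of detected and silent genes stayed within 1.5 times under every alternative run, from 11262 to 12374 for the 11293 detected genes and from 5990 to 8259 for the 5729 silent genes. The 729 abundant genes became 2191 with a mean TPM of at least 100, since TPM values here are larger than RPKM by construction. The share of the 25 most abundant genes (10.2%) was 6.03% as the share of counts of the 25 genes with most counts, and 9.78% to 10.5% with a library left out. The 1353 variable genes became 562 at a mean count of at least 1000, 75 by a tagwise biological coefficient of variation of at least 0.4 in edgeR, and 775 with the GC and length trend removed. They numbered 369 to 832 with 2 libraries in place of 3, with 369 without siNC 3, 668 without siNC 1 and 832 without siNC 2, and a range over fewer libraries is smaller by construction. The common biological coefficient of variation (0.242) was 0.254 without the filter and ranged from 0.203, without siNC 3, to 0.271, without siNC 2. The mean squared correlation between libraries (0.947 ± 0.0135, SD of 3 pairs) was 0.974 over all genes, and 0.934 to 0.961 with a library left out. In the first 26 lists, without the 9 added later, 212 of 342 members were detected, and 156 to 220 under the alternatives. Of the counts per list or family, 42 of 359 alternatives moved by over 1.5 times, 27 of them at 5 RPKM. A count of 0 allows up to 3 counts, from counting error alone, and the levels were not recomputed at lower depth.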

Other observations

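Of 357 solute carrier genes, 183 were detected (51.3%, near the 49.0% of all genes), led by Slc7a5, the large neutral amino acid transporter, with 425, 286 and 375 RPKM. Of 367 zinc finger genes named Zfp, 274 were detected (74.7%), and the median over all 367 was 3.08 RPKM, against 1.19 RPKM over all genes. Of 58 genes of the protocadherin clusters, whose variable exons label single neurons, 12 were detected (20.7%) and none was silent, with Pcdha2 the highest at 8.42, 15.3 and 10.7 RPKM. As 55.2% of the Pcdha2 windows were shared with another annotated transcript, this level is uncertain. Of 80 cytochrome P450 genes of families 2 to 4, 51 were silent (63.7%, against 24.9% of all genes) and Cyp4f13 was the highest, with 8.86, 8.87 and 6.07 RPKM.

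Among long non-coding RNAs, Gas5 had 84.6, 79.7 and 67.6 RPKM and Malat1, a nuclear speckle RNA, had 43.0, 68.2 and 49.0 RPKM, while Rmst and Sox2ot were silent. Of 529 microRNA precursor genes, 31 reached 1 RPKM in all libraries (5.86%), although poly-A selection does not measure mature microRNAs. The highest, Mir682, is listed with 96 bases of exon and had 423, 346 and 279 RPKM. In all, 12 genes under 300 bases of exon exceeded a mean of 100 RPKM, and Rpl11, listed with 24 bases, had 124, 96.8 and 85.3 RPKM.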
